A study of Mus musculus with 12 samples.

Results

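The nuclear genes of the mitochondrial respiratory chain were examined for open chromatin in mouse aortic endothelial cells. Members were chosen by symbol among 21631 genes, those annotated as protein-coding on chromosomes 1 to 19 and X in GRCm38. They were the genes whose symbols start with Ndufa, Ndufb, Ndufc, Ndufs, Ndufv, Uqcr, Cox4i, Cox5, Cox6, Cox7, Cox8 or Atp5, and Sdha, Sdhb, Sdhc and Sdhd. The rule gave 96 genes. Of these, 41 encode subunits of complex I, 4 of complex II, 8 of complex III, 18 of complex IV and 17 of complex V. The other 8 are the Ndufaf genes, which the letters Ndufa take in, and they encode assembly factors of complex I rather than subunits. Ndufa4 and its paralog Ndufa4l2 are counted here with complex I by symbol, although the Ndufa4 protein is now placed in complex IV. Cyc1, a catalytic subunit of complex III, falls outside the symbols and was looked at separately.

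The respiratory chain passes electrons from NADH and succinate through complexes I, II and III and cytochrome c to oxygen at complex IV, and pumps protons across the inner mitochondrial membrane. Complex V, the ATP synthase, uses the returning protons to make ATP. Except in complex II, whose subunits all come from the nucleus, the complexes join nuclear with mitochondrial gene products, and many nuclear subunit promoters carry sites for the factors NRF1, GABP (an ETS factor) and YY1. Endothelial cells draw much of their ATP from glycolysis, and their mitochondria are known for roles in redox and calcium signalling.

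ATAC-seq uses a transposase to insert sequencing adapters where DNA is accessible. The 8 ATAC-seq samples of mouse aortic endothelial cells (MAECs) formed 4 groups of 2. In WDM-WDO, mothers and offspring had the diet abbreviated WD, and in CDM-WDO the mothers had CD and the offspring WD. In WDM-CDO the mothers had WD and the offspring CD, and in CDM-CDO both had CD. Offspring of both WDO groups had received WD for 4 weeks. The labels do not write the diets out, and the title of the series names a high-fat diet of the mothers. The sources used here do not give strain, genotype, sex, age or the number of animals per sample. The peak names carry a week tag of 12 in both WDO lists and of 8 in both CDO lists, so offspring diet and whatever that tag marks cannot be told apart.

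Each group had 1 peak list, so no spread between replicates could be measured and no difference carries a p-value. The lists held 26275 peaks in WDM-WDO, 18962 in CDM-WDO, 28319 in WDM-CDO and 22178 in CDM-CDO. The strength of a peak is given as the count of reads stacked at its summit, called its pileup, recovered from the authors' fold enrichment and −log10 p. The median over all peaks was 39 reads in WDM-WDO, 31 in CDM-WDO, 38 in WDM-CDO and 36 in CDM-CDO. Of 10 endothelial marker genes, 8 had a peak within 1 kb in WDM-WDO, 8 in CDM-WDO, 8 in WDM-CDO and 6 in CDM-CDO. Of 6 macrophage and monocyte markers, 6 in WDM-WDO, 3 in CDM-WDO, 3 in WDM-CDO and 4 in CDM-CDO had one. For 6 lymphocyte markers the counts were 4 in WDM-WDO, 1 in CDM-WDO, 5 in WDM-CDO and 5 in CDM-CDO. Smooth muscle markers (5 genes) had 0 in WDM-WDO, 0 in CDM-WDO, 1 in WDM-CDO and 1 in CDM-CDO. Fibroblast markers (4 genes) had 2 in WDM-WDO, 1 in CDM-WDO, 2 in WDM-CDO and 2 in CDM-CDO. Cardiac and skeletal muscle markers (5 genes) had 2 in WDM-WDO, 1 in CDM-WDO, 3 in WDM-CDO and 3 in CDM-CDO. Brown fat markers (3 genes) had 1 in CDM-WDO and 1 in WDM-CDO, with 0 in WDM-WDO and 0 in CDM-CDO. Of all protein-coding genes, 58.2% had a peak within 1 kb in WDM-WDO, 49.9% in CDM-WDO, 61.2% in WDM-CDO and 57.2% in CDM-CDO. At the gene start, 2 of 6 endothelial markers had a peak in WDM-WDO and 3 of 6 in each other list. Macrophage and monocyte markers had 3 of 3 in WDM-WDO and 1 of 3 in each other list. For all genes the start shares were 50.2% in WDM-WDO, 42.9% in CDM-WDO, 53.5% in WDM-CDO and 50.5% in CDM-CDO. The part of other cell types in the member results was not tested. The samples are bulk, so fewer cells with an open site and less opening per cell cannot be told apart.

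Promoter sequences were in the RefSeq table of GRCm38.p6 for 78 of the 96 members, each from 250 bases before to 50 bases after the start of the gene. Those shown are ones that the results turn on: a pair of promoters with the factor sites typical of these genes, the promoter of the member with the highest median −log10 q, a promoter called in the lists of WDM offspring only, and a pair at which no list had a peak. Capitals mark letters that match a search for NRF1, ETS, YY1, SP1 or the TATA box on either strand. Ndufaf8 (chr11:120098684-120098983, + strand) encodes an assembly factor of complex I and has an ETS, a YY1 and an SP1 match. Sdhb (chr4:140961021-140961320, + strand) encodes the iron-sulfur subunit of complex II and has 1 ETS and 3 SP1 matches. Atp5g1 (chr11:96075582-96075881, − strand) encodes a copy of the proton-carrying c subunit of complex V and has none of the 5. Atp5k (chr5:108434350-108434649, − strand) encodes the e subunit of complex V, and its NRF1 match reads the same on both strands. Cox7b (chrX:106015450-106015749, + strand) encodes a complex IV subunit and has none of the 5. Cox8b (chr7:140900397-140900696, − strand) encodes the heart and muscle form of a complex IV subunit and has a TATA match.
Ndufaf8: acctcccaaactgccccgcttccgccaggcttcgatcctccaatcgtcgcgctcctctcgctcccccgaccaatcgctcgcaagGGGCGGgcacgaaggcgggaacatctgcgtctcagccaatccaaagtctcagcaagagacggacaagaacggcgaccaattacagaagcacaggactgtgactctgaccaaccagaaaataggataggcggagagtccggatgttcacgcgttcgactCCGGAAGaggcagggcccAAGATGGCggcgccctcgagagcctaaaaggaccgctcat
Sdhb: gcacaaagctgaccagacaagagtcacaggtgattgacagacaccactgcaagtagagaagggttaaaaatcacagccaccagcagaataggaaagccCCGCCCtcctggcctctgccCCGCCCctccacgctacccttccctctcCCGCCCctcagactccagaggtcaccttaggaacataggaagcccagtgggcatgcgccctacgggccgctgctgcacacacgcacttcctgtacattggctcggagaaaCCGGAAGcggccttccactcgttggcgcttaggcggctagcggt
Atp5g1: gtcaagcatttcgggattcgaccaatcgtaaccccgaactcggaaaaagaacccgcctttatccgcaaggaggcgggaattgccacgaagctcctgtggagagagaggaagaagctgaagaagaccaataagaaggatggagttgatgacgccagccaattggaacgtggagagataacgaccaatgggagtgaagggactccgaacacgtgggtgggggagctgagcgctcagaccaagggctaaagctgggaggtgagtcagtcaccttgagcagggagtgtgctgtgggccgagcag
Atp5k: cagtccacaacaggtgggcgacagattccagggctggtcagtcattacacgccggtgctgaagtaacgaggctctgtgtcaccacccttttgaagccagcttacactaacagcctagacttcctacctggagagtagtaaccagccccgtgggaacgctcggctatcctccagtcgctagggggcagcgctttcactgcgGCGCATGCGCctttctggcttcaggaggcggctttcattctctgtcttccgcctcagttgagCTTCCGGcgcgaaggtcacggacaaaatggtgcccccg
Cox7b: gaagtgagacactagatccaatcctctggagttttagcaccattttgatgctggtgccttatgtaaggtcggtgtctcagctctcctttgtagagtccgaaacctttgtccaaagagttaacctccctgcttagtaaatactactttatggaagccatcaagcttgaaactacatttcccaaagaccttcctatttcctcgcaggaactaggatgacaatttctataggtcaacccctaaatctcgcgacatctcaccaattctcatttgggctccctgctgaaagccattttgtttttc
Cox8b: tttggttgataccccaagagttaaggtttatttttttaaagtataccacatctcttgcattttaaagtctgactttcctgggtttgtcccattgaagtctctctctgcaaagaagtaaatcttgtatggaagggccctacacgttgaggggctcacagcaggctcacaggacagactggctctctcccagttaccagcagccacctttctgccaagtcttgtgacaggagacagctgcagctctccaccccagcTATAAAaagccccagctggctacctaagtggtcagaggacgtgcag

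Most of the respiratory chain genes lay in open chromatin in every group. A peak within 1 kb of the gene was present at 88 of 96 members (91.7%) in WDM-WDO, against 58.2% of all protein-coding genes. The count was 72 (75%) in CDM-WDO, against 49.9% of all genes, 88 (91.7%) in WDM-CDO, against 61.2%, and 84 (87.5%) in CDM-CDO, against 57.2%. Members were shorter than genes in general, with a median span of 7228 bp against 17329 bp, so the 1 kb window gave them less length in which to hold a peak. At the start of the gene itself, where 78 members and 17274 genes could be scored, 74 members had a peak within 1 kb in WDM-WDO, against 50.2% of all genes. There were 59 in CDM-WDO, against 42.9%, 74 in WDM-CDO, against 53.5%, and 69 in CDM-CDO, against 50.5%. The member counts were lowest in CDM-WDO, as was the share of all genes.

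The complexes differed in completeness. All 4 genes of complex II, which also serves the citric acid cycle, had a peak in all 4 lists, and so did all 8 Ndufaf assembly genes. Complex I had 39 of 41 genes with a peak in WDM-WDO, 31 in CDM-WDO, 39 in WDM-CDO and 37 in CDM-CDO. Of 8 complex III genes, 8 in WDM-WDO, 7 in CDM-WDO, 8 in WDM-CDO and 8 in CDM-CDO had a peak. The counts for the 17 genes of complex V were 17 in WDM-WDO, 14 in CDM-WDO, 17 in WDM-CDO and 16 in CDM-CDO. Complex IV was the least complete, with 12 in WDM-WDO, 8 in CDM-WDO, 12 in WDM-CDO and 11 in CDM-CDO of its 18 genes. Its shares were near those of all genes, at 66.7% in WDM-WDO, against 58.2%, and 44.4% in CDM-WDO, against 49.9%. In WDM-CDO it was 66.7%, against 61.2%, and in CDM-CDO 61.1%, against 57.2%. The other complexes and the assembly genes stood above the share of all genes in every list.

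**Figure D1:**
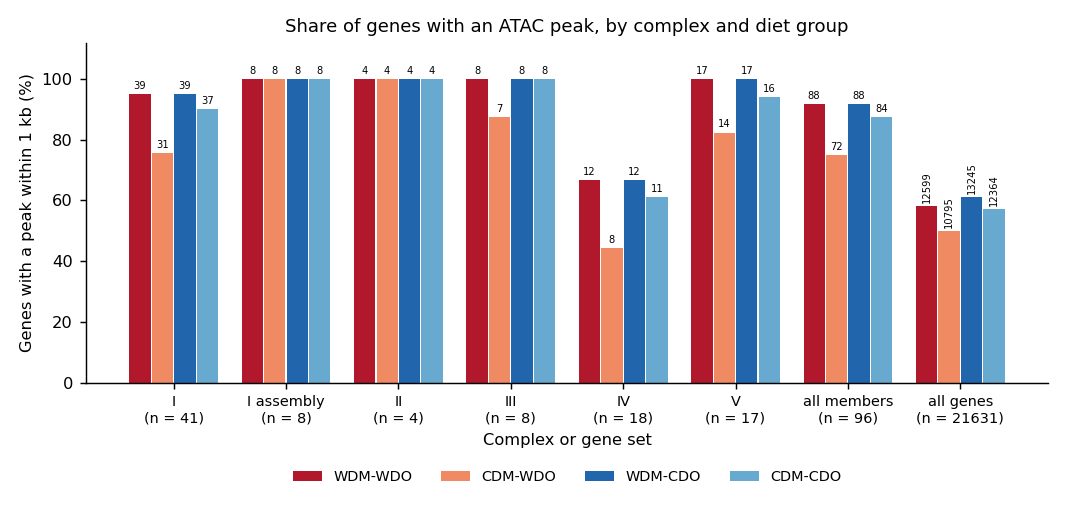
Share of genes with an ATAC peak within 1 kb of the gene span (vertical axis, %), by complex and for all members and all protein-coding genes (horizontal axis), with 1 bar for each of the 4 lists and the number of genes printed on each bar. Complex II and the complex I assembly genes stand at 100% in all 4 lists, complex IV between 44.4% and 66.7%, and the CDM-WDO bar is the lowest wherever the lists differ.

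Taken gene by gene, 72 members (75%) had a peak in all 4 lists, as did 9644 of all genes (44.6%). A further 11 members lacked a peak in CDM-WDO alone (11.5%, against 6.75% of all genes), and 5 had one in both lists of WDM offspring and in neither list of CDM offspring (5.21%, against 1.84%). Cox7b2 had a peak in CDM-CDO alone, and 7 members had none (7.29%, against 32% of all genes). No other combination of lists occurred among the members. Every member called in CDM-WDO was thus called in the other 3 lists, and WDM-WDO and WDM-CDO had the same 88 members.

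The strongest member peaks were in part at the same genes in every list. Uqcrq, a small subunit of complex III, had 213 reads at its summit in WDM-WDO, 142 in CDM-WDO, 288 in WDM-CDO and 166 in CDM-CDO. Its peak in WDM-WDO lay at chr11:53430396-53431313 and spanned an end of the gene. Atp5g1 had 193 reads in WDM-WDO, 161 in CDM-WDO, 240 in WDM-CDO and 159 in CDM-CDO. Both genes led the members by median −log10 q over the lists, Atp5g1 at 109 and Uqcrq at 107. When the 10 strongest members of each list were compared, 5 were in all 4 sets, namely these genes with Atp5j, Ndufb5 and Ndufv3. Across the members called in both lists of a pair, the rank correlation of pileups (Spearman's rho) lay between 0.855 (72 members, CDM-WDO with CDM-CDO) and 0.926 (88 members, WDM-WDO with WDM-CDO). This describes genes within a list, which are not independent replicates and share promoter composition and neighbours.

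Within complex I, Ndufs8, a core subunit that carries iron-sulfur clusters, had 171 reads in WDM-WDO, 92 in CDM-WDO, 210 in WDM-CDO and 123 in CDM-CDO. The accessory subunit Ndufb5 had 145 reads in WDM-WDO, 94 in CDM-WDO, 179 in WDM-CDO and 113 in CDM-CDO. Ndufv3, also an accessory subunit, had 145 reads in WDM-WDO, 83 in CDM-WDO, 175 in WDM-CDO and 116 in CDM-CDO. All 3 were highest in WDM-CDO and lowest in CDM-WDO. Over all complex I genes with a peak, the median pileup was 76 reads in WDM-WDO, 49 in CDM-WDO, 81 in WDM-CDO and 57 in CDM-CDO. The assembly gene Ndufaf8 had 148 reads in WDM-WDO, 87 in CDM-WDO, 171 in WDM-CDO and 113 in CDM-CDO, above that median in every list. Ndufaf3, another assembly gene, had 152 reads in WDM-WDO, 100 in CDM-WDO, 140 in WDM-CDO and 103 in CDM-CDO. Ndufaf2, an assembly factor as well, had 87 reads in WDM-WDO, 41 in CDM-WDO, 79 in WDM-CDO and 55 in CDM-CDO. Ndufaf1 was weak, with 43 reads in WDM-WDO, 25 in CDM-WDO, 30 in WDM-CDO and 24 in CDM-CDO. All 4 of these assembly genes were lower in CDM-WDO than in WDM-WDO.

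In complex II, Sdhb had 103 reads in WDM-WDO, 66 in CDM-WDO, 103 in WDM-CDO and 79 in CDM-CDO. Sdha, the flavoprotein subunit that oxidises succinate, had 54 reads in WDM-WDO, 28 in CDM-WDO, 79 in WDM-CDO and 54 in CDM-CDO. The membrane anchor Sdhc had 69 reads in WDM-WDO, 29 in CDM-WDO, 62 in WDM-CDO and 51 in CDM-CDO. Sdhd, the other anchor, had 80 reads in WDM-WDO, 40 in CDM-WDO, 70 in WDM-CDO and 55 in CDM-CDO. CDM-WDO was the lowest list at all 4 genes. In complex III, the hinge protein gene Uqcrh had 146 reads in WDM-WDO, 90 in CDM-WDO, 133 in WDM-CDO and 76 in CDM-CDO. Uqcrc2, a core protein gene, had 109 reads in WDM-WDO, 39 in CDM-WDO, 97 in WDM-CDO and 67 in CDM-CDO. At Uqcrh the lowest list was CDM-CDO, and at Uqcrc2 it was CDM-WDO. Uqcrc1, the gene of the other core protein, had 55 reads in WDM-WDO, 23 in CDM-WDO, 45 in WDM-CDO and 36 in CDM-CDO.

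Cox7a2l, whose product joins complexes III and IV into supercomplexes, was the strongest complex IV gene by median −log10 q, with 135 reads in WDM-WDO, 72 in CDM-WDO, 129 in WDM-CDO and 70 in CDM-CDO. Here the lists split by the diet of the mothers, and the values within each maternal diet were close. The small subunit Cox7c followed, with 79 reads in WDM-WDO, 53 in CDM-WDO, 80 in WDM-CDO and 74 in CDM-CDO. Cox8a, another small subunit, had 95 reads in WDM-WDO, 61 in CDM-WDO, 122 in WDM-CDO and 74 in CDM-CDO. At both, as at Cox7a2l, the lists of WDM offspring stood above those of CDM offspring, the direction in which the peaks of most genes differed. In complex V, Atp5j, a subunit of the peripheral stalk, had 144 reads in WDM-WDO, 92 in CDM-WDO, 172 in WDM-CDO and 128 in CDM-CDO. Atp5d, a subunit of the rotating central stalk, had 162 reads in WDM-WDO, 109 in CDM-WDO, 193 in WDM-CDO and 131 in CDM-CDO. Both ranked the lists alike, with WDM-CDO highest and CDM-WDO lowest. Gabpa, the gene of the DNA-binding GABP subunit, starts beside Atp5j on the opposite strand, within 1 kb of the same peak.

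**Figure D2:**
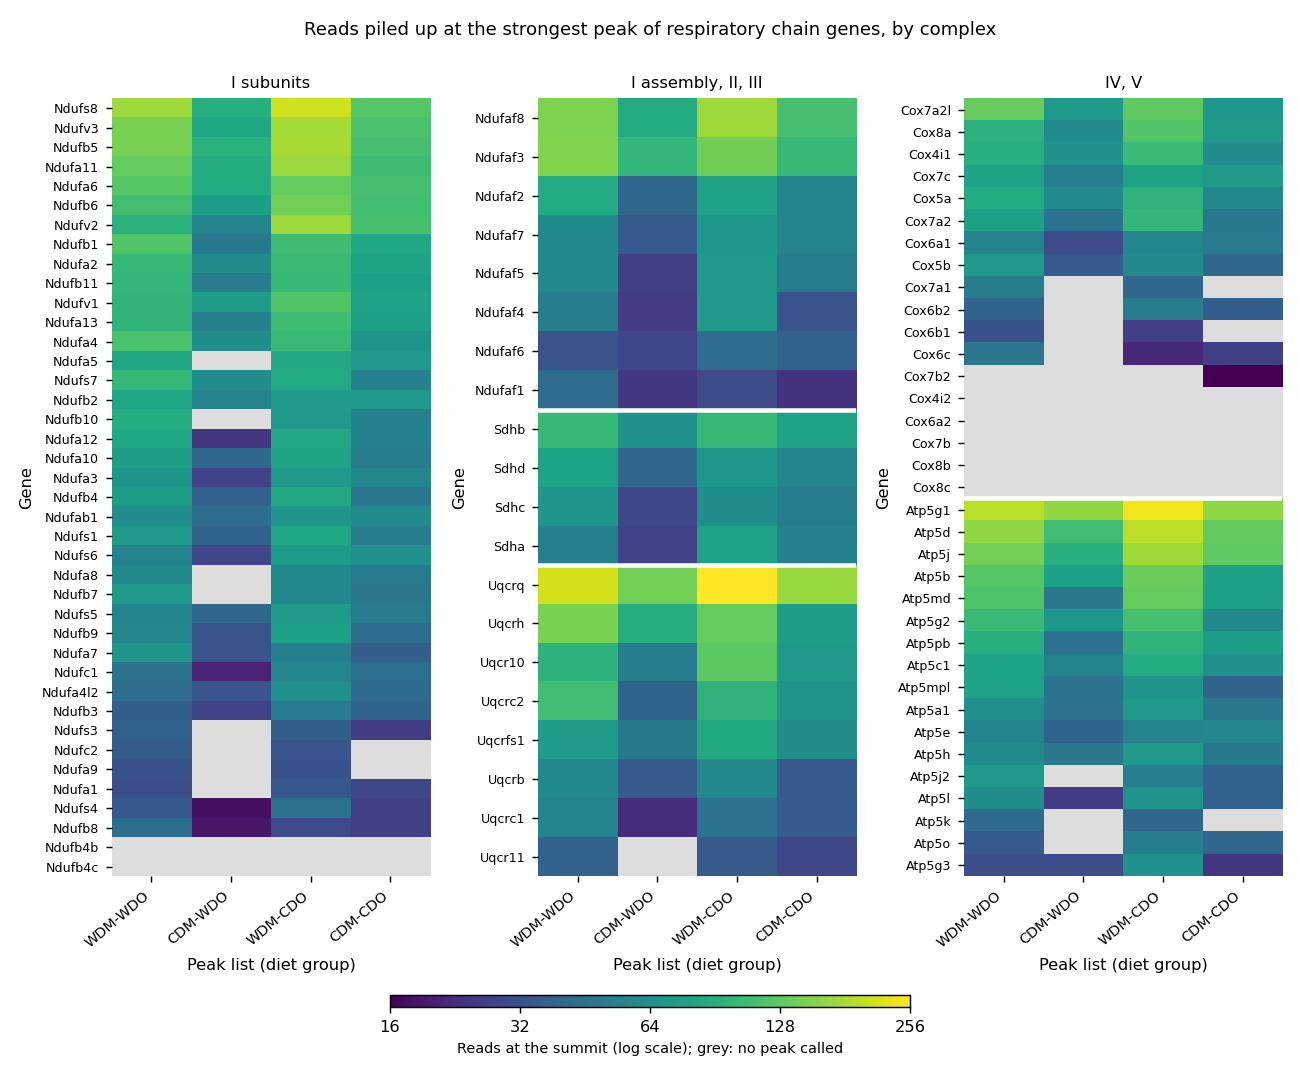
Reads at the summit of the strongest peak within 1 kb of the members (colour, log scale), with genes in rows grouped by complex and the 4 lists in columns; grey marks no called peak. Grey cells fall mainly in the CDM-WDO column and among complex IV genes, and the brightest rows, Uqcrq and Atp5g1, are bright in all 4 columns.

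The 16 members that WDM-WDO had and CDM-WDO lacked (11.8% of all genes went this way) were spread over the complexes. They were 8 of complex I, 1 of complex III, 4 of complex IV and 3 of complex V. The reverse held for 0 members, against 3.42% of all genes. As a share of the genes with a peak in WDM-WDO, those not called in CDM-WDO made up 18.2% of members and 20.2% of all genes, so the members' share was near the background. By reads, the strongest of them in WDM-WDO was Ndufb10, an accessory subunit of complex I, with 89 reads there. It had no peak in CDM-WDO, 71 reads in WDM-CDO and 54 in CDM-CDO. Its −log10 q in WDM-WDO was 22.2, below the 36.3 of Ndufa5. Ndufa5, another accessory subunit, had 82 reads in WDM-WDO, no peak in CDM-WDO, 85 in WDM-CDO and 71 in CDM-CDO. These pileups were well inside the range of members that were called in CDM-WDO. At Ndufb7, an accessory subunit on the intermembrane side, there were 74 reads in WDM-WDO, no peak in CDM-WDO, 58 reads in WDM-CDO and 48 in CDM-CDO. Ndufa8, on the same side, had 60 reads in WDM-WDO, no peak in CDM-WDO, 59 reads in WDM-CDO and 50 in CDM-CDO.

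A further 7 members lacked a peak in CDM-WDO alone. The core subunit gene Ndufs3 had 38 reads in WDM-WDO, 37 in WDM-CDO and 26 in CDM-CDO. Ndufa1, an accessory subunit gene, had 31 in WDM-WDO, 34 in WDM-CDO and 29 in CDM-CDO. In complex III, the small subunit gene Uqcr11 had 38 reads in WDM-WDO, 35 in WDM-CDO and 29 in CDM-CDO, near the weakest calls of its complex. Each of these 3 genes was lowest in CDM-CDO among the lists that called it. Cox6c, a complex IV subunit, had 48 in WDM-WDO, 22 in WDM-CDO and 27 in CDM-CDO. Cox6b2, the testis form of a complex IV subunit, had 39 in WDM-WDO, 51 in WDM-CDO and 37 in CDM-CDO. Of complex V, Atp5j2, the f subunit, had 71 in WDM-WDO, 53 in WDM-CDO and 38 in CDM-CDO. Which list was highest thus differed from gene to gene. Atp5o, the subunit that ties the stalk to the catalytic head, had 35 in WDM-WDO, 51 in WDM-CDO and 40 in CDM-CDO. All 7 genes stood below 75.5 reads in WDM-WDO, the median of the 88 members called there.

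Members without a call in CDM-WDO were weaker elsewhere than members with one. In WDM-WDO their median was 40.5 reads (range 31 to 89, 16 members), against 81 (31 to 213, 72 members) for those called. In WDM-CDO it was 40 (16 members) for those not called, against 86 (72 members) for those called. In CDM-CDO it was 37.5 (12 members) for those not called, against 60.5 (72 members) for those called. The ranges overlapped in each list.

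**Figure D3:**
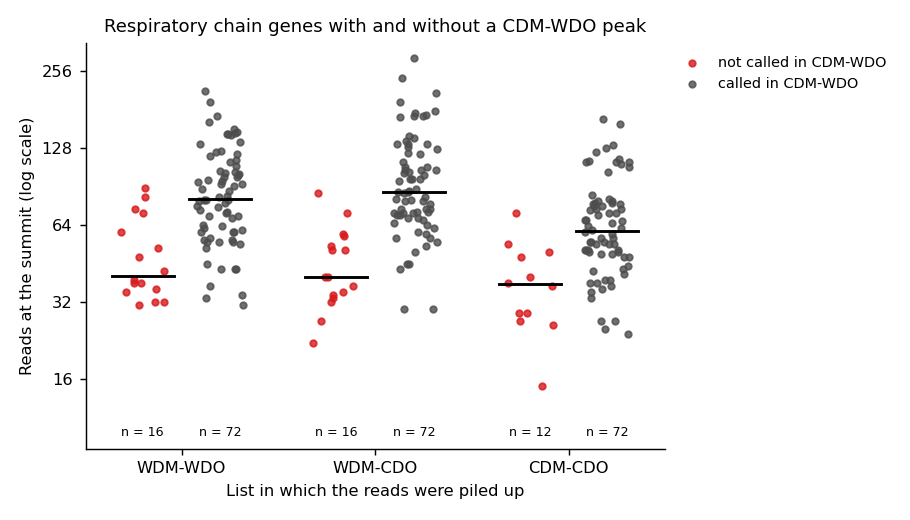
Reads at the summit (vertical axis, log scale) for members not called in CDM-WDO (red, left of each pair) and called in CDM-WDO (grey, right), in each of the other 3 lists (horizontal axis); points are genes and the bars are medians. In WDM-WDO the median is 40.5 reads for members not called in CDM-WDO and 81 for those called, and the points overlap.

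The lists of WDM and CDM offspring on the CD diet differed at 6 members. Against CDM-CDO, WDM-CDO had 5 members more (background 6.45% of all genes) and 1 member less (2.38%). The 5 members, Atp5k, Cox6b1, Cox7a1, Ndufa9 and Ndufc2, also had a WDM-WDO peak and lacked a CDM-WDO peak. As a share of genes with a peak in WDM-CDO, those not called in CDM-CDO made up 5.68% of members and 10.5% of all genes. Atp5k had 42 reads in WDM-WDO and 40 in WDM-CDO. Cox7a1, the heart and muscle form of a complex IV subunit, had 52 in WDM-WDO and 40 in WDM-CDO. Cox6b1, the broadly expressed partner of Cox6b2, had 32 in WDM-WDO and 27 in WDM-CDO. All of these values were below 75.5 reads, the median over the members in WDM-WDO. Ndufa9, an accessory subunit needed for a stable complex I, had 32 in WDM-WDO and 32 in WDM-CDO. Ndufc2, an accessory subunit as well, had 36 in WDM-WDO and 33 in WDM-CDO, so that all 5 were weak in both lists.

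The pairs that compare the diet of the offspring gave unlike counts. Against CDM-CDO, CDM-WDO had 0 members more (3.54% of all genes) and 12 less (10.8%). The 12 were the 11 members missing from CDM-WDO alone and Cox7b2. As a share of genes with a peak in CDM-CDO, those not called in CDM-WDO made up 14.3% of members and 18.9% of all genes. Against WDM-CDO, WDM-WDO had 0 members more (3.97% of all genes) and 0 less (6.96%). Both pairs with CDM-WDO share that list, so the members missing from it count in each of them. Counted as regions that overlap by at least 1 bp, 92 of 97 member peaks of WDM-WDO (94.8%) had a counterpart in WDM-CDO, against 70.6% of the peaks within 1 kb of any gene. In the other direction it was 91 of 92 member peaks of WDM-CDO (98.9%), against 65.7%. Between CDM-WDO and CDM-CDO it was 75 of 76 peaks of CDM-WDO (98.7%), against 75% for any gene, and 75 of 91 of CDM-CDO (82.4%), against 58.6%. For the diet of the mothers it was 74 of 97 peaks of WDM-WDO (76.3%), against 54.5%, and 75 of 76 of CDM-WDO (98.7%), against 79%. It was 85 of 92 peaks of WDM-CDO (92.4%), against 68.9%, and 86 of 91 of CDM-CDO (94.5%), against 83.6%. These shares were not matched for the strength of the peaks.

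Of the 7 members with no peak in any list, 5 belong to complex IV. They are Cox4i2, the lung form of a subunit that responds to oxygen, Cox6a2 and Cox8b, heart and muscle forms, Cox8c, a testis form, and Cox7b. The other 2, Ndufb4b and Ndufb4c, are short loci of 471 and 485 bp named as copies of the complex I gene Ndufb4. Cox7b was the unlike case, since it is the broadly expressed form of its subunit. Its nearest peak lay 3635 bp away in WDM-WDO, 3674 bp in CDM-WDO, 3660 bp in WDM-CDO and 3485 bp in CDM-CDO, within 1 kb of the neighbouring gene Magt1. That peak had 51 reads in WDM-WDO, 49 in CDM-WDO, 58 in WDM-CDO and 45 in CDM-CDO. For the other 6, the nearest peak was between 1117 and 76844 bp away. The sources used here do not say whether reads that map to several places were kept, which bears on Ndufb4b and Ndufb4c.

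For Cox4i, Cox6a and Cox8 the broadly expressed form had a peak in every list and the tissue-restricted forms had none. Cox4i1 had 92 reads in WDM-WDO, 66 in CDM-WDO, 105 in WDM-CDO and 62 in CDM-CDO, beside no peak at Cox4i2. Cox6a1 had 55 reads in WDM-WDO, 30 in CDM-WDO, 57 in WDM-CDO and 50 in CDM-CDO, beside none at Cox6a2. Cox8a was called in all lists, beside none at Cox8b and Cox8c. Cox7a2 had 78 reads in WDM-WDO, 46 in CDM-WDO, 100 in WDM-CDO and 49 in CDM-CDO, beside a peak at its muscle partner Cox7a1 in the lists of WDM offspring only. At Cox6b and Cox7b the tissue-restricted form was called in more lists than the broadly expressed form. Cox6b2 was called in 3 lists and Cox6b1 in 2, and both were weak. Cox7b had no peak in any list, and Cox7b2, its testis form, had 15 reads in CDM-CDO, at a summit 37196 bp inside a gene of 105383 bp and far from its start. Ndufa4l2, a paralog of Ndufa4 known to be induced by hypoxia, had 43 reads in WDM-WDO, 33 in CDM-WDO, 64 in WDM-CDO and 42 in CDM-CDO. The CDM-CDO value is of a peak at an end of the gene, and the others are of a peak inside it. The CDM-CDO peak inside the gene had 36 reads, and the start of Ndufa4l2 could not be scored. Ndufa4 itself had 115 reads in WDM-WDO, 63 in CDM-WDO, 105 in WDM-CDO and 67 in CDM-CDO, at its start. These were more than at the strongest Ndufa4l2 peak in every list.

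Most start peaks of the members had their summit close to the start of the gene. In WDM-WDO, 69 of 74 members with a start peak had its summit within 250 bp of the start (93.2%), against 76.9% of all genes with a start peak. In CDM-WDO the share was 89.8% of members, against 79.9% of all genes, in WDM-CDO 94.6% against 79.6%, and in CDM-CDO 91.3% against 78.2%. The median member summit lay 15 bp before the start in WDM-WDO, 52 bp in CDM-WDO, 23.5 bp in WDM-CDO and 33 bp in CDM-CDO. Most members had a single peak: more than 1 was found at 10.2% of members with a peak in WDM-WDO, 5.56% in CDM-WDO, 4.55% in WDM-CDO and 8.33% in CDM-CDO. Among all genes with a peak the shares were 33.3% in WDM-WDO, 21.4% in CDM-WDO, 33.6% in WDM-CDO and 28.1% in CDM-CDO, over longer spans. A peak beyond the strongest was found in all 4 lists at only Atp5b, the catalytic beta subunit of complex V, and Ndufb6, an accessory subunit of complex I. At Atp5b it lay within 1 kb of Baz2a and had 97 reads in WDM-WDO, 41 in CDM-WDO, 87 in WDM-CDO and 68 in CDM-CDO. At Ndufb6 it had no other gene within 1 kb and 51 reads in WDM-WDO, 33 in CDM-WDO, 47 in WDM-CDO and 42 in CDM-CDO.

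Many members share their promoter with a neighbour. A gene starting on the opposite strand within 1 kb, pointing away, was found at 22 of 78 members (28.2%) and at 1483 of 17274 genes (8.59%). Among these pairs were Ndufb5 with the mitochondrial ribosomal protein gene Mrpl47, Sdhd with Timm8b, a chaperone of the intermembrane space, Ndufa7 with the ribosomal protein gene Rps28, and Atp5j with Gabpa. Of these 22 members, 22 had a start peak in WDM-WDO, 19 in CDM-WDO, 22 in WDM-CDO and 22 in CDM-CDO. Of the 56 members without such a partner, 52 in WDM-WDO, 40 in CDM-WDO, 52 in WDM-CDO and 47 in CDM-CDO had one. Over all genes with a partner the shares with a start peak were 93.8% in WDM-WDO, 87.1% in CDM-WDO, 95.1% in WDM-CDO and 93.3% in CDM-CDO. Over all genes without a partner they were 46.1% in WDM-WDO, 38.7% in CDM-WDO, 49.6% in WDM-CDO and 46.4% in CDM-CDO. A peak at a shared promoter cannot be assigned to either gene.

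Start peaks present in both lists of a pair were then compared by their reads. In WDM-WDO against CDM-WDO, 58 of 59 members were higher in WDM-WDO (98.3%, against 93.9% of all genes) and 1 was equal, with a median ratio of 1.70, against 1.46 over all genes (6947). On the log2 scale the members' median was 0.77 and that of all genes 0.55, so the members stood 0.22 above the shift of all genes. In WDM-CDO against CDM-CDO, 68 of 69 members were higher (98.6%, against 95.3% of all genes), with a median ratio of 1.40, against 1.42 over all genes (8335), a log2 difference of -0.01 between the medians. In CDM-WDO against CDM-CDO, 50 of 58 members were lower (86.2%, against 80.3% of all genes), with a median of 0.776 against 0.814. In WDM-WDO against WDM-CDO, 46 of 74 were lower (62.2%, against 75.9% of all genes), with a median of 0.929 against 0.833, and the members stood 0.16 above all genes on the log2 scale. The ratios of all genes follow the depth of the lists as well as any change, and these 2 could not be told apart.

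By medians, the distance from all genes in WDM-WDO against CDM-WDO was not the same in every complex. The median log2 ratio was 0.86 over 26 complex I genes, 0.95 over 3 of complex II, 0.81 over 4 of complex III, 0.76 over 7 of complex IV and 0.57 over 12 of complex V. The 7 assembly genes had a median of 0.78. Ranges of the complexes overlapped, at 0.39 to 1.73 for complex I, 0.64 to 1 for complex II and 0.58 to 1.26 for complex III. They were 0.53 to 0.98 for complex IV and 0 to 1.31 for complex V, and a difference between complexes was not tested. In WDM-CDO against CDM-CDO the medians were 0.45 for complex I and 0.55 for complex V, over 32 and 14 genes. With both pileups at 40 reads or more, a limit chosen after the values were seen, the members' median ratio in WDM-WDO against CDM-WDO was 1.58 (38 members), against 1.43 (5007 genes), 0.14 apart on the log2 scale. Promoter GC content moved with this ratio over all genes, and genes were put in 3 equal GC classes after the values were seen. In the lowest class the median ratio was 1.88 for 7 members, against 1.55 for all genes. It was 1.68 for 32 members, against 1.51, in the middle class, and 1.75 for 20 members, against 1.40, in the highest. Other mitochondrial lists had medians of 1.56 (44 mitochondrial ribosome genes), 1.50 (28 assembly factors outside the symbols), 1.43 (13 citric acid cycle genes) and 1.66 (12 genes of cytochrome c, coenzyme Q and electron carriers).

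Single members departed from these medians. Ndufa12, an accessory subunit of complex I, had 83 reads in WDM-WDO, 25 in CDM-WDO, 85 in WDM-CDO and 54 in CDM-CDO. Its log2 ratio of WDM-WDO to CDM-WDO was 1.73, the highest of the members. The 95% Poisson intervals, which cover counting error only, were 66.1 to 103 reads in WDM-WDO and 16.2 to 36.9 in CDM-WDO. Atp5md, a small membrane subunit of complex V, had 119 reads in WDM-WDO and 48 in CDM-WDO (log2 1.31). Ndufb1, an accessory subunit, had 121 in WDM-WDO and 49 in CDM-WDO (log2 1.30). Atp5g3, another gene of the c subunit, had 31 reads in WDM-WDO, 31 in CDM-WDO, 65 in WDM-CDO and 25 in CDM-CDO. Its log2 ratio was 0 for WDM-WDO against CDM-WDO, the lowest of the members. For WDM-CDO against CDM-CDO it was 1.38, the highest of the members, so Atp5g3 was high in 1 list alone. The 3 c subunit genes encode the same mature protein, and Atp5g1 had the most reads of the 3 in every list. Atp5g2 had 104 reads in WDM-WDO, 70 in CDM-WDO, 113 in WDM-CDO and 60 in CDM-CDO. Ndufs6, an accessory subunit of complex I that binds zinc, had 29 reads in CDM-WDO and 65 in CDM-CDO (log2 -1.16). Ndufv2, a core subunit, had 94 in WDM-WDO and 170 in WDM-CDO (log2 -0.85).

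**Figure D4:**
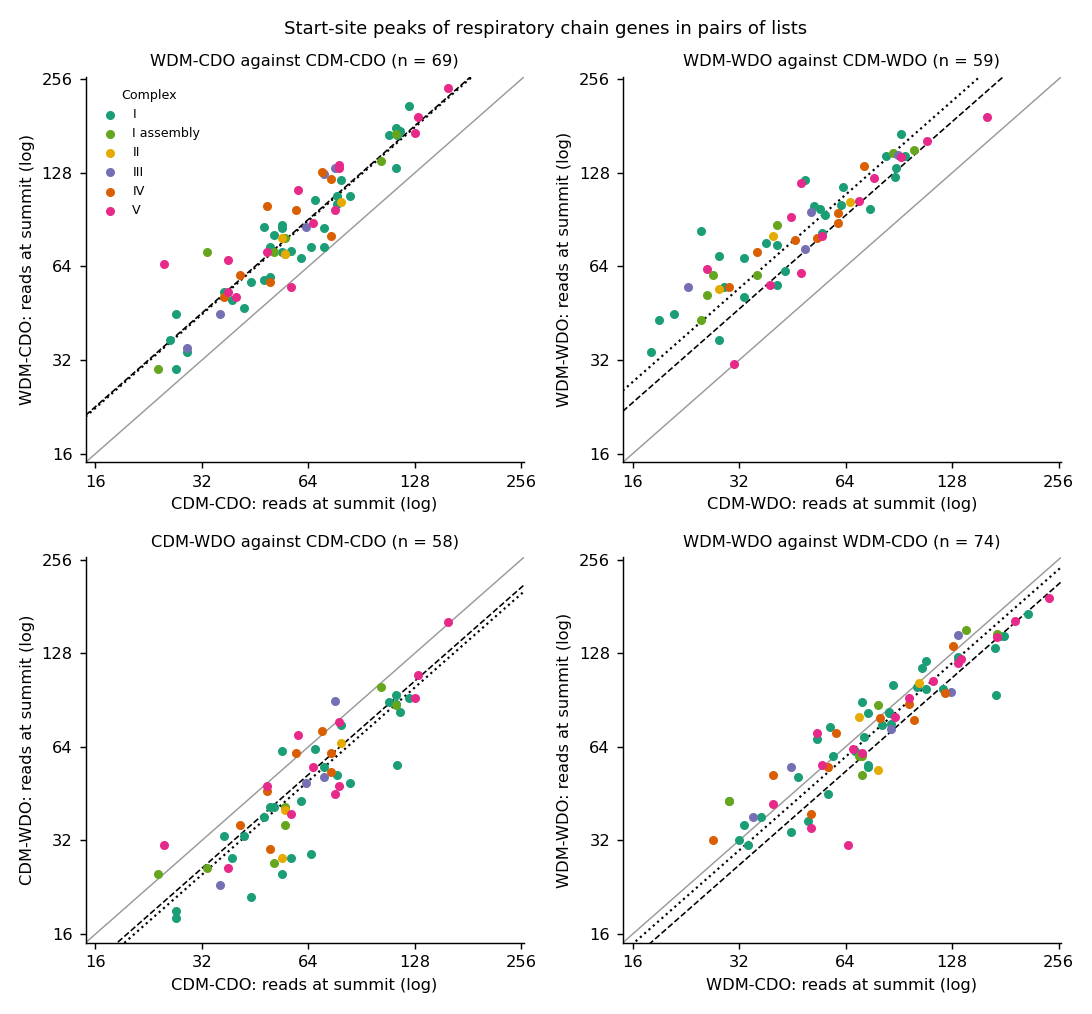
Reads at the start-site summit of members called in both lists of a pair (both axes, log scale), 1 panel per pair, coloured by complex; the grey line marks equal reads, the dashed line the median ratio of all genes and the dotted line that of the members. In WDM-WDO against CDM-WDO the dotted line (1.70) lies above the dashed line (1.46), and in WDM-CDO against CDM-CDO both nearly coincide (1.40 and 1.42).

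Member promoters had a higher CpG ratio, and more often matches to NRF1, ETS and YY1, than promoters in general. Their median GC content was 58.5%, against 56.3% over all 17274 promoters, and their median ratio of observed to expected CpG was 0.831, against 0.585. Against the 7894 promoters of genes with a peak in all lists, the 59 members with a peak in all lists had a lower GC content (59.3%, against 61.3%) and a CpG ratio of 0.857, against 0.789. The CpG ratio was 0.730 for the 16 members lacking a peak in 1 to 3 lists and 0.368 for the 3 with no peak. Atp5g1, with one of the strongest peaks, had a single match among the searched motifs, to AP-1.

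The motif of NRF1, a regulator of nuclear genes for mitochondria, was searched as GCGCANGCG on both strands. It was found in 21 member promoters (26.9%), in 8.93% of all promoters and in 15.2% of the 7894 promoters of genes with a peak in all lists. The ETS core bound by GABP, searched as CCGGAAG, was found in 18 (23.1%), against 12% and 19.3%. On the strand of the gene alone ETS was found in 7.69% of members, against 6.65% of all promoters and 11% of those with a peak in all lists. The YY1 motif, searched as AAGATGGC, was found in 10 (12.8%), against 3.25% and 4.98%. Any of these 3 was found in 41 member promoters (52.6%) and in 21.5% of all promoters. The SP1 box GGGCGG did not follow the others, with 35 members (44.9%), against 46.9% of all promoters and 66.9% of those with a peak in all lists. The CREB site TGACGTCA was found in 4 members (5.13%), against 2.37% of all promoters and 3.56% of those with a peak in all lists. The estrogen-related receptor site TNAAGGTCA was found in 3 (3.85%), against 1.07% and 0.671%. The AP-1 site TGANTCA was in 7 (8.97%), against 7.14% and 4.38%, and the TATA box TATAAA in 8 (10.3%), against 13.4% and 6.51%. In the 59 members with a peak in all lists the shares were 25.4% for NRF1, 22% for ETS and 13.6% for YY1. They were 49.2% for SP1, 6.78% for CREB, 5.08% for the estrogen-related receptor, 8.47% for AP-1 and 8.47% for TATA. Different motifs shared a base in 1 member promoter, that of Ndufs3, where an ETS and an SP1 match overlap. A site that reads the same on both strands, as the NRF1 match of Atp5k does, was met on both by the search, and a promoter was counted once however many matches it held.

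**Figure D5:**
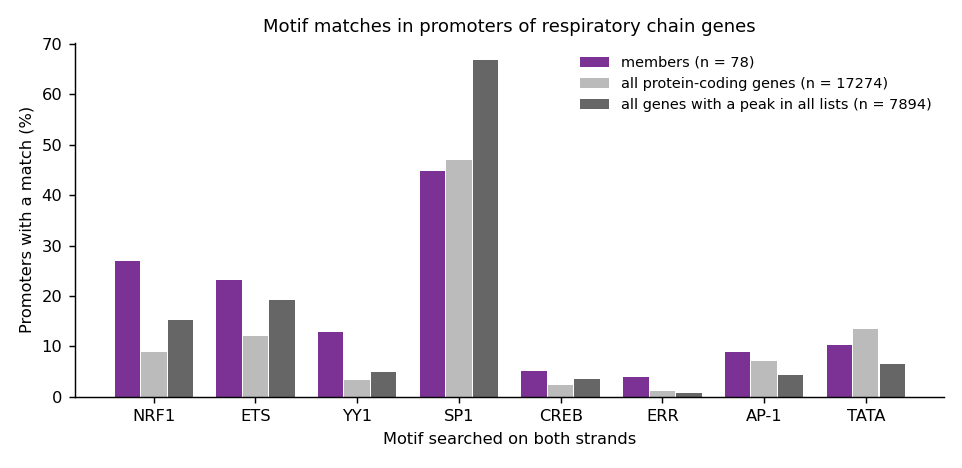
Share of promoters (vertical axis, %) with at least 1 match to each of 8 motifs on either strand (horizontal axis), for 78 members, all 17274 protein-coding genes with an entry and the 7894 of them with a peak in all lists. The member bar is the highest of the 3 for NRF1 (26.9%), ETS (23.1%), YY1 (12.8%), CREB (5.13%), the estrogen-related receptor (3.85%) and AP-1 (8.97%). It is the lowest for SP1 (44.9%) and lies between the other bars for TATA (10.3%).

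Most YY1 matches in member promoters shared a strand and a side of the start, within the 50 bases after it that were searched. Of 10 matches in member promoters, 9 lay on the strand of the gene and wholly after its start, beginning 10 to 38 bases from it, against 235 of 580 matches (40.5%) in all promoters. The exception, Atp5pb, a subunit of the peripheral stalk of complex V, had it on the opposite strand across the start. NRF1 matches were spread from 241 bases before the start to 31 after it, with a median of 49 bases before. The letters of the YY1 motif include an ATG, and whether it is the initiating codon was not tested. Each match is shown in capitals with up to 10 bases on either side, in GRCm38.p6. The letters are on the strand of the gene, so the shared strand can be read from them. The genes are Atp5j2 (chr5:145191501-145191528, − strand), Atp5pb (chr3:105959249-105959276, − strand), Ndufa3 (chr7:3617385-3617412, + strand), Ndufa9 (chr6:126849098-126849125, − strand), Ndufaf8 (chr11:120098934-120098961, + strand), Ndufb8 (chr19:44555393-44555414, − strand), Ndufc1 (chr3:51408916-51408943, − strand), Ndufs4 (chr13:114388045-114388069, − strand), Ndufs6 (chr13:73328433-73328459, − strand) and Ndufs7 (chr10:80249463-80249490, + strand). Apart from the 2 complex V genes and Ndufaf8, all encode complex I subunits.
Atp5j2: ccaggacttcAAGATGGCgtcactcggt
Atp5pb: tgtgcgagcgGCCATCTTgctcctgccc
Ndufa3: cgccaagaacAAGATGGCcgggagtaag
Ndufa9: attgtgggagAAGATGGCggccgccgtc
Ndufaf8: ggcagggcccAAGATGGCggcgccctcg
Ndufb8: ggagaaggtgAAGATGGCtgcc
Ndufc1: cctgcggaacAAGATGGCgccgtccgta
Ndufs4: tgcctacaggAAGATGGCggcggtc
Ndufs6: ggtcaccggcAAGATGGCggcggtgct
Ndufs7: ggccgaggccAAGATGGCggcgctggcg

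The same lists showed how other genes of the same machinery stood. Of 39 assembly factors outside the symbols, 39 had a peak within 1 kb in WDM-WDO, 32 in CDM-WDO, 38 in WDM-CDO and 39 in CDM-CDO. Of 78 mitochondrial ribosome genes the counts were 75 in WDM-WDO, 55 in CDM-WDO, 76 in WDM-CDO and 73 in CDM-CDO. All 18 citric acid cycle genes had a peak in WDM-WDO, WDM-CDO and CDM-CDO, and 16 had one in CDM-WDO. All 15 genes of cytochrome c, coenzyme Q and electron carriers had a peak in WDM-WDO, WDM-CDO and CDM-CDO, and 13 had one in CDM-WDO, where Cyc1 was among those missing. Of the genes called in WDM-WDO, those not called in CDM-WDO were 20 of 75 for the mitochondrial ribosome (26.7%) and 7 of 39 for the assembly factors (17.9%), beside 18.2% of members and 20.2% of all genes.

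Among 23 nuclear regulators of mitochondrial genes, 21 had a peak in WDM-WDO, 21 in CDM-WDO, 23 in WDM-CDO and 21 in CDM-CDO. Esrra, the gene of estrogen-related receptor alpha, had 196 reads in WDM-WDO, 136 in CDM-WDO, 249 in WDM-CDO and 144 in CDM-CDO. Nrf1 had 36 in WDM-WDO, 31 in CDM-WDO, 53 in WDM-CDO and 49 in CDM-CDO, below Esrra in every list. Yy1 had 141 in WDM-WDO, 128 in CDM-WDO, 195 in WDM-CDO and 136 in CDM-CDO. Ppargc1a, the coactivator known to induce respiratory genes, was weak, with 28 in WDM-WDO, 20 in CDM-WDO, 33 in WDM-CDO and 25 in CDM-CDO. Gabpa has the values given for Atp5j, whose peak lies within 1 kb of both genes. Nrf1, Gabpa and Yy1 were thus called in all 4 lists.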

How the data were processed

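ATAC-seq was made on 8 samples of MAECs in 4 groups of 2. Per the submitters' processing notes the tools include Bowtie2 2.4.5 and MACS2 2.2.9.1, and the build is GRCm38 (mm10), with no settings. Pooling of the samples of a group and shifting of read ends are not given in the sources used here. Lists were tied to groups by the diet pair in their names, which matches the sample titles. The authors deposited a fold enrichment over local background (a ratio) and a −log10 p for each summit. They also deposited a −log10 q, treated as a score that ranks peaks within a list. The lowest −log10 q per list was 1.30 to 1.31, near a q-value of 0.05. The 4 H3K27ac samples were not analysed here.

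Summit pileups were recovered as the whole number of reads k that gives both the fold, (k + 1) over the background + 1, and the −log10 p of a Poisson tail. This worked for 100% of peaks within a relative tolerance of 0.0001, and was tested on simulated data. Genes came from a RefSeq table of GRCm38.p6. Peaks with several summits were counted once by their strongest summit. A peak within 1 kb of several genes counted for each. No p-value was computed. Calculations used Python 3.11.15, numpy 2.4.6, pandas 2.3.3 and scipy 1.17.1, and figures matplotlib 3.10.9. The members, gene lists, motifs and comparisons were chosen with earlier results of these data known. Named were members with no peak or with presence that differed between lists, the 3 strongest per complex by median −log10 q, and the tissue-restricted forms with their partners. The members with extreme ratios, further genes named for contrast, and the promoters shown were chosen after their values were seen. One member that counts and medians include is not reported here by itself and has no row in the heatmap.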

Additional observations from a re-analysis of the deposited data

How the results depend on the processing

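No paired analysis was possible because each group had 1 peak list and no list separates its samples; for the same reason no replicate could be left out. With windows of 0 bp and 5 kb, peaks at gene ends only, a −log10 q of at least 5, equal list lengths of 18962 peaks, the nearest gene only, or the Ndufaf genes left out, each count of members with a peak within 1 kb stayed within 1.5 times its value, and so did the counts at gene starts, of shared regions and of the other mitochondrial lists under the alternatives run for them. At equal list lengths the counts were 88 in WDM-WDO, 72 in CDM-WDO, 86 in WDM-CDO and 82 in CDM-CDO. As shares they were 91.7% of members, against 52.9% of all genes, in WDM-WDO, 75% against 49.9% in CDM-WDO, 89.6% against 55.2% in WDM-CDO and 85.4% against 54.9% in CDM-CDO. The pair of WDM-WDO and WDM-CDO, which had 0 members on either side, gained 2 in WDM-CDO only with the 5 kb window (Cox4i2 and Cox8c), 1 in WDM-WDO only at the stricter −log10 q (Cox6c), and 2 in WDM-WDO only at equal list lengths (Cox6c and Uqcr11). Searched on the strand of the gene only, the ETS motif was found in 6 member promoters, SP1 in 23, the estrogen-related receptor site in 1 and TATA in 3. Fewer strands were searched by construction. On that strand the members' ETS share among promoters with a peak in all lists was 5.08%, against 11% of all such promoters, so the higher share of members seen on both strands was turned round. Start peaks with at least 40 reads in both lists, an alternative added after seeing the data, gave median ratios of 1.44 in WDM-CDO against CDM-CDO, 1.58 in WDM-WDO against CDM-WDO, 0.820 in CDM-WDO against CDM-CDO and 0.926 in WDM-WDO against WDM-CDO. The lowest called pileup was 16 reads in WDM-WDO, 15 in CDM-WDO, 15 in WDM-CDO and 14 in CDM-CDO. The depth of single samples is unknown.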
